A study of Mus musculus with 12 samples.

Results

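The genes described here encode the subunits of the receptors for glutamate and for gamma-aminobutyric acid (GABA) in mouse cortical cells. They were chosen by gene symbol alone: the AMPA (Gria), kainate (Grik), NMDA (Grin), delta (Grid) and metabotropic (Grm) glutamate receptor genes, the GABA-A subunit genes (Gabra, Gabrb, Gabrg, Gabrr, Gabrd, Gabre, Gabrp and Gabrq) and the GABA-B genes (Gabbr1 and Gabbr2). All 47 such genes among the 23253 genes of the count table were included, of which 26 are glutamate and 21 are GABA receptor genes. Of the 47, 46 passed the filter on low counts and were tested. Gabra6 did not pass it.

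The study measured RNA by sequencing in 12 libraries of C57BL/6 mouse cells that the labels describe as cortical neurons isolated by FACS, and its title names the role of the growth factor GDF10 in axonal sprouting after stroke. The 4 groups of 3 libraries each were adult control animals, adult animals with a stroke, adult animals with a stroke and an siRNA to GDF10 (called siRNA-labelled below), and animals labelled P4 control. The labels do not spell out P4, and the growth protocol given for every library, P4 included, speaks of adult C57BL/6 mice. The stroke was photothrombotic: after rose bengal, a cold light shone for 15 min on the exposed skull gave a focal lesion of 2 mm diameter. The sources used here do not give the time after stroke, the marker used for sorting, whether the stroke groups' controls had a sham operation or control siRNA, or whether the libraries of a group came from separate animals. The p-values therefore measure the spread between these libraries, which may be partly technical. Replicate numbers run from 1 to 3 in adult control and siRNA-labelled stroke and from 4 to 6 in the other 2 groups. This numbering and the group cannot be told apart when stroke is compared with adult control, when siRNA-labelled stroke is compared with stroke, or when P4 is compared with adult control or siRNA-labelled stroke.

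Glutamate is the main excitatory transmitter of the cortex and GABA the main inhibitory one. AMPA, kainate and NMDA receptors are cation channels built from subunits of their own family, metabotropic glutamate and GABA-B receptors act through G proteins, and GABA-A receptors are chloride channels in which alpha, beta and gamma subunits are the usual partners. The subunit composition is known to shift as the cortex matures: the NMDA receptor subunit Grin2b and the GABA-A subunits Gabra2, Gabra3 and Gabra5 are prominent early, and Grin2a gains in share later.

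Libraries held 10517638 to 48633350 counts over genes. The 15 general neuronal markers used for checking the sort were Rbfox3, Snap25, Syt1, Syn1, Eno2, Map2, Nefl, Nefm, Thy1, Uchl1, Elavl3, Elavl4, Stmn2, Tubb3 and Celf4. They took 0.497% ± 0.233 (SD, n = 3) of all counts in adult control, 0.235% ± 0.0267 in stroke, 0.279% ± 0.0618 in siRNA-labelled stroke and 0.828% ± 0.158 in P4. The 12 oligodendrocyte markers took far more in the adult animals, 5.87% ± 3.09 in adult control, 5.98% ± 0.641 in stroke and 9.04% ± 2.14 in siRNA-labelled stroke, against 0.0206% ± 0.0101 in P4. Oligodendrocyte markers thus outweighed general neuronal markers in all 9 libraries from the adult groups, which goes against the label of sorted neurons, and P4 differed from every other group in this. Adult control replicate 3 stood apart from the other adult control libraries, with a Pearson correlation of log2 counts, scaled to library size, across genes of 0.753 with replicate 1 and 0.681 with replicate 2, against 0.902 between replicates 1 and 2. Adult control replicate 2 correlated at 0.944 with siRNA-labelled replicate 3 and at 0.935 with stroke replicate 4. The ribosomal RNA precursor Rn45s took 2.08% of counts in adult control replicate 2 and 2.72% in siRNA-labelled replicate 3. It took 0.0964% to 0.427% in the other libraries of these groups and 2.11% to 2.44% in stroke. The part of this in the receptor values was not tested. Gdf10, the gene targeted by the siRNA, had 15, 21 and 0 counts in the adult controls, 0, 5 and 0 after stroke, 8, 7 and 1 in siRNA-labelled stroke and 189, 241 and 33 in P4. The siRNA-labelled libraries were therefore not lower than the stroke libraries in the targeted gene, and these counts are too few to check the label.

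Receptor genes took 0.404% ± 0.0770 of all counts in adult control, 0.232% ± 0.0226 in stroke, 0.238% ± 0.0312 in siRNA-labelled stroke and 0.726% ± 0.0948 in P4 (SD, n = 3). The 3 P4 libraries were the highest and the 3 adult control libraries lay between them and the stroke and siRNA-labelled libraries. Set against the general neuronal markers of the same library, the differences between the groups were small: 917 ± 336 receptor counts per 1000 neuronal marker counts in adult control, 1002 ± 183 in stroke, 869 ± 93.0 in siRNA-labelled stroke and 883 ± 54.6 in P4. In bulk libraries such as these, fewer neurons and less receptor RNA per neuron cannot be told apart. For that reason the fold changes below are given on the scale of all counts, and values relative to the neuronal markers are given beside those of receptor genes whose direction or call they turn. Whether the markers themselves keep the same level per neuron in all groups, P4 above all, was not tested, so that this scale is not a level per neuron.

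**Figure D1:**
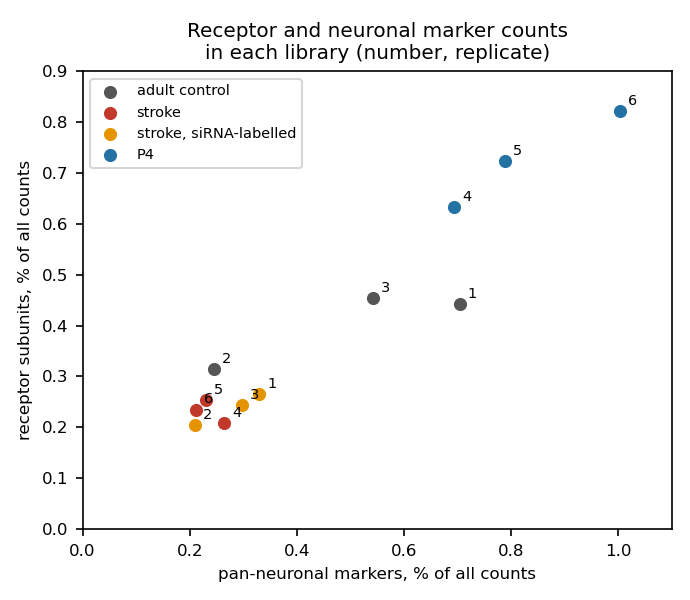
Percent of all counts taken by the 47 receptor genes (y axis) against the percent taken by the 15 general neuronal markers (x axis). Each point is 1 library, coloured by group, with its replicate number beside it. The P4 libraries sit at the upper right, with receptor shares of 0.633% to 0.822%, and the stroke and siRNA-labelled libraries at the lower left, with 0.204% to 0.266%.

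The balance between the 2 transmitter systems also differed between the groups. GABA receptor genes made up 36.1% ± 7.45 of the receptor counts in adult control, 25.6% ± 3.12 in stroke, 30.8% ± 2.90 in siRNA-labelled stroke and 47.2% ± 7.79 in P4. This share does not depend on how the libraries are scaled. The stroke range of 23.4% to 29.2% overlapped the adult control range of 27.6% to 41.7% through adult control replicate 2, and the P4 range of 41.1% to 55.9% overlapped that of adult control but neither stroke group. One gene, the AMPA receptor subunit Gria2, alone took 20.1% to 24.4% of the receptor counts as a group mean.

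Per kilobase of exon, which allows genes to be compared, Grm3 led in the 3 adult groups. Grm3, a metabotropic receptor gene, was first in adult control with a mean of 75.2 CPM per kb (CPM, counts per 1000000 after scaling by edgeR's TMM factors), in stroke with 45.6 and in siRNA-labelled stroke with 65.3. Gria2 followed in adult control with 64.3 CPM per kb. In P4, Gabra5 with 128 CPM per kb was ahead of Gria2 with 108, Gabrb2 with 99.4 and Grm3 with 80.7. At the other end, 9 of the 47 genes had no count in at least 1 library, and 33 had 10 or more counts in all 12.

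**Figure D2:**
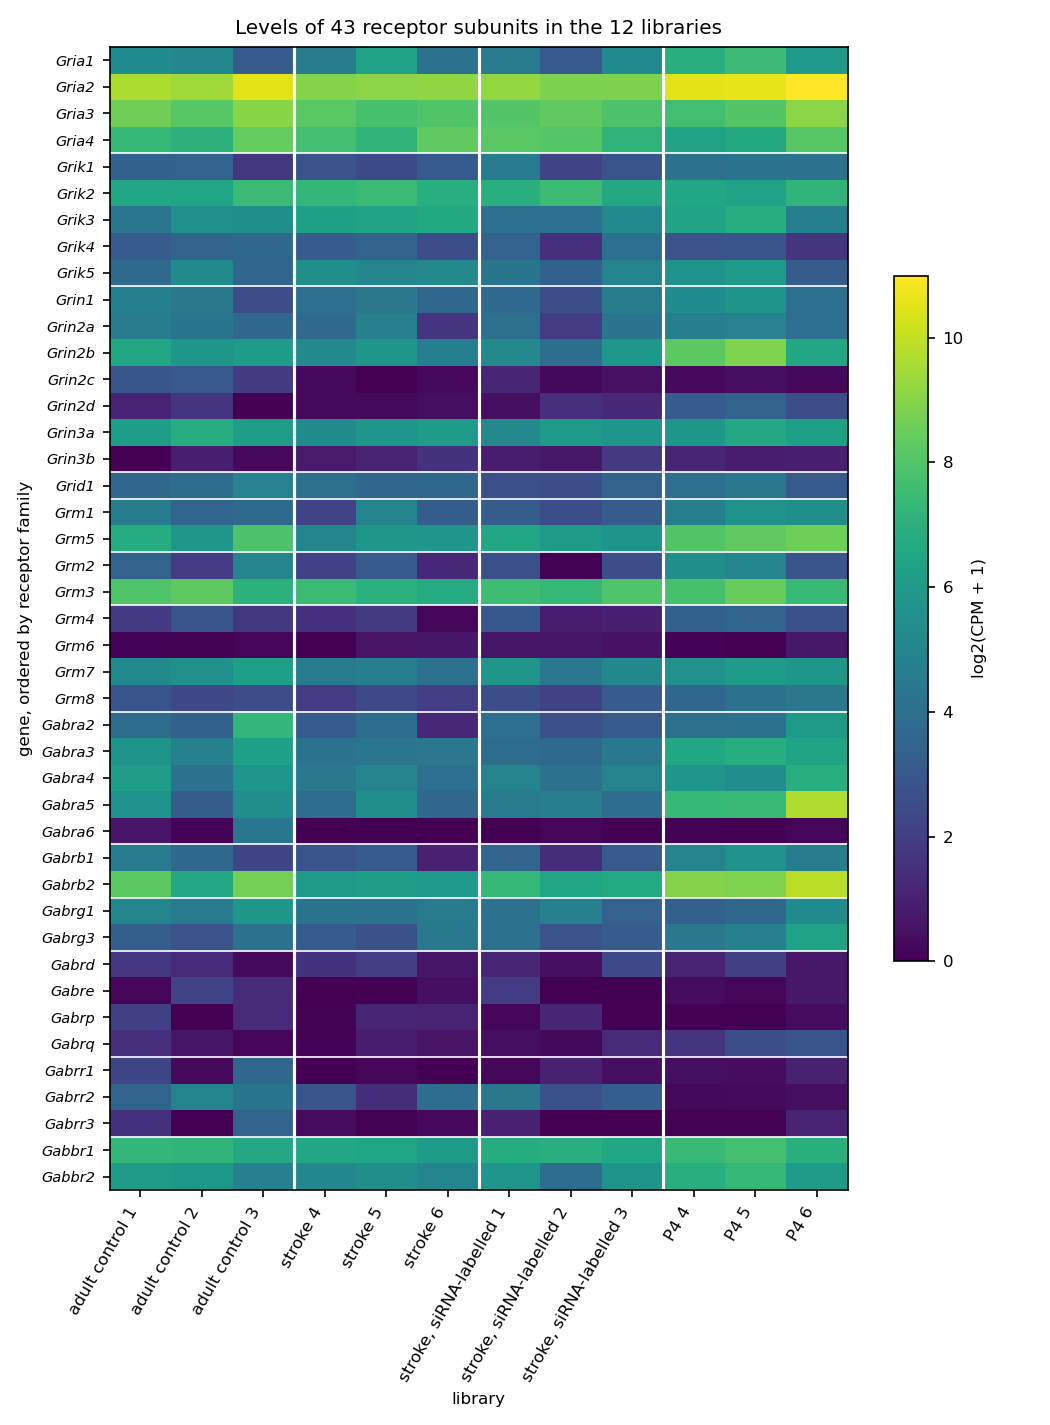
Level of 43 receptor genes (rows, grouped by receptor family, white lines between families) in each of the 12 libraries (columns), as log2(CPM + 1) on the colour scale. Gria2 is the brightest row, and Gabra5 and Gabrb2 are brighter in the 3 P4 libraries than in the others.

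A test of any difference among the 4 groups (edgeR's quasi-likelihood F test with Benjamini-Hochberg adjustment over all 17909 genes tested, called at an adjusted p under 0.05) called 14 of the 46 tested genes, where 20.1% of all genes were called. Among the 14 were Gria2, Grik3, Grin2b, Grin2c, Grin2d, Grm5, Grm8, Gabra3, Gabra5, Gabrb2 and Gabrr2. All other adjusted p-values below come from the same fit and test. In the pairwise comparisons the calls came from P4. Between stroke and adult control the test called 0 of 46, with 0.704% of all genes called, although 11 receptor genes had an unadjusted p under 0.05, as had 15.9% of all genes, and the DESeq2 Wald test called 9 lower, where it called 4.8% of all genes lower. Between siRNA-labelled stroke and stroke it called 0 of 46, with 0.00558% of all genes called, 2 genes at an unadjusted p under 0.05 (7.37% of all genes) and 0 by DESeq2 (0.942% of all genes). Between siRNA-labelled stroke and adult control it called 0 of 46, with 0.117% of all genes called (0.0838% higher and 0.0335% lower), 11 at an unadjusted p under 0.05 (8.36% of all genes) and 1 lower by DESeq2, Gabra3 (0.939% of all genes lower). P4 against adult control gave 3 higher and 2 lower of 46, with 16.8% of all genes called, 6.32% higher and 10.4% lower. P4 against stroke gave 15 higher and 2 lower, with 18.8% of all genes called, 7.94% higher and 10.8% lower. P4 against siRNA-labelled stroke gave 13 higher and 1 lower, with 19.6% called, 8.05% higher and 11.6% lower.

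The split into higher and lower calls depended on the scale. With library sizes set to the neuronal marker counts, P4 against adult control gave 1 higher and 3 lower, where 1.2% of all genes were called higher and 16.4% lower. P4 against stroke gave 3 higher and 5 lower, where 1.2% of all genes were called higher and 31% lower, and P4 against siRNA-labelled stroke 2 higher and 6 lower, where 1.31% were called higher and 25.3% lower. On this scale the median of all genes itself lay at -1.18, -1.68 and -1.56 in the 3 comparisons. Of the receptor genes called on the scale of all counts, 3 of 5, 5 of 17 and 3 of 14 were called on both scales. The 6 comparisons share libraries and are not independent of each other, and their values are given side by side for each gene.

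**Figure D3:**
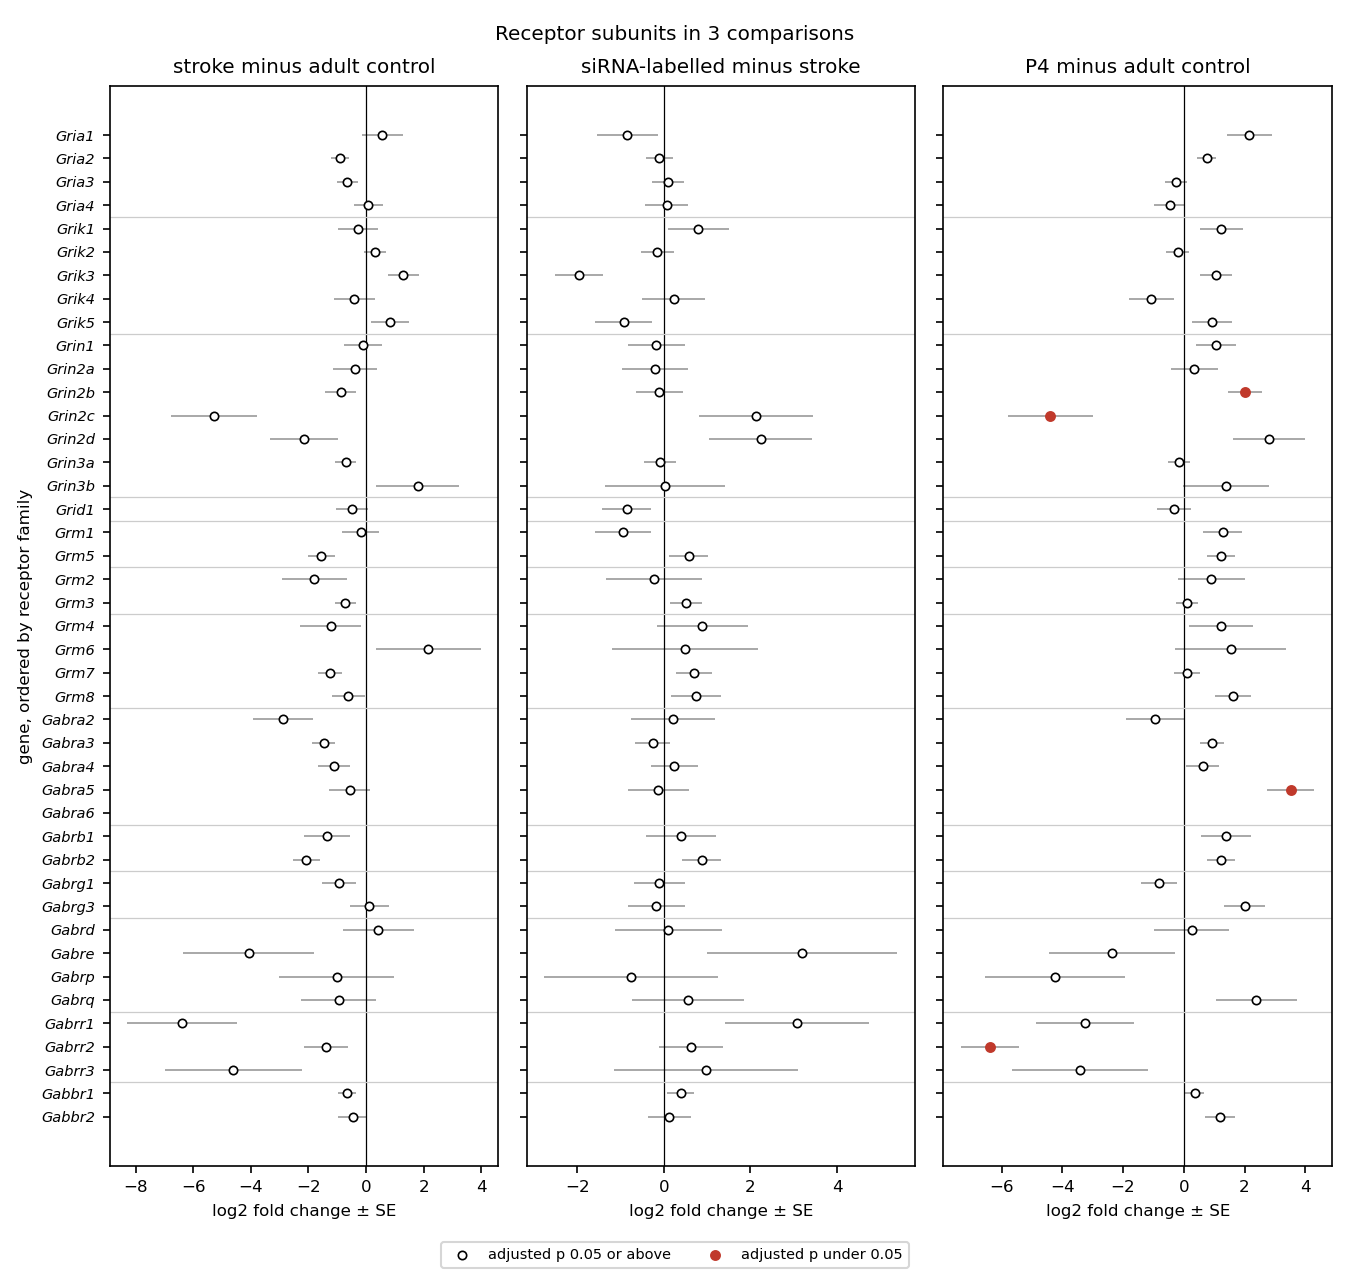
Log2 fold change of the tested receptor genes among the 43 plotted (points, horizontal bars give the standard error) in 3 comparisons, with genes grouped by family and the direction of each difference in the panel title. Filled points passed the test; they are Grin2b, Grin2c, Gabra5 and Gabrr2 in P4 against adult control, and no point in the other 2 panels is filled.

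Among the AMPA receptor genes, Gria2 codes for the subunit that makes AMPA receptors nearly impermeable to calcium. It was measured at 799.5, 694 and 1508 CPM in the adult control libraries, 489.9, 542 and 567 in the stroke libraries, 594, 449 and 446 in siRNA-labelled stroke and 1479, 1532 and 2037 in P4. Each stroke and siRNA-labelled library was below each adult control library, and P4 was above both stroke groups. The log2 fold change was -0.91 ± 0.32 (SE) for stroke against adult control (adjusted p = 0.192) and -1.01 ± 0.32 for siRNA-labelled stroke against adult control (adjusted p = 0.359), and neither passed; relative to the neuronal markers the former was 0.00 and the latter -0.38. Gria2 was higher in P4 than in stroke by 1.66 ± 0.32 (adjusted p = 0.00173), a call that was lost and whose sign turned, to -0.11, relative to the neuronal markers. The other AMPA genes did not pass in stroke against adult control. Gria4, which lay at 212 ± 108 CPM in adult control (SD, n = 3) and 224 ± 86.7 in stroke, and Gria3, at 399 ± 123 and 255 ± 34.0, show the spread between libraries. Gria1 was higher in P4 than in siRNA-labelled stroke by 2.43 ± 0.75 (adjusted p = 0.0319), a call that held in 2 of 6 fits that left out a library and was lost relative to the neuronal markers (1.12, adjusted p = 0.314).

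Of the kainate receptor genes, Grik2 was the most abundant, with 93.9, 86.5 and 180.0 CPM across the adult controls, 152, 180.4 and 116 across the stroke libraries, 121, 187 and 97.6 in siRNA-labelled stroke and 92.2, 78.5 and 144 in P4; its groups overlapped and it passed no pairwise test on the scale of all counts. Grik3, which codes for a low-affinity kainate receptor subunit, had the smallest p of the receptor genes between siRNA-labelled stroke and stroke. It was measured at 18.8, 45.5 and 43.5 CPM in the adult controls, 76.6, 85.2 and 102 after stroke, 15.0, 15.3 and 37.4 in siRNA-labelled stroke and 85.2, 113 and 25.7 in P4. All 3 stroke libraries were above all adult control and all siRNA-labelled libraries. The log2 fold change of siRNA-labelled stroke against stroke was -1.96 ± 0.55 with an adjusted p of 0.497, so that the difference did not pass. A fit to those 6 libraries alone gave an adjusted p of 0.0417. Grik3 was called higher in P4 than in siRNA-labelled stroke by 1.72 (adjusted p = 0.0374). That call held in 2 of 6 fits that left out a library and was lost relative to the neuronal markers. Among the 3 adult groups the 10 markers of oligodendrocyte precursors moved with Grik3, at 0.429% ± 0.0797 of all counts in stroke against 0.238% ± 0.146 in adult control and 0.222% ± 0.0603 in siRNA-labelled stroke. In P4 they did not, at 0.0224% ± 0.0059, where Grik3 averaged 74.6 CPM against 35.9 in adult control. The part of these markers in the Grik3 values was not tested.

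Among the NMDA receptor genes, Grin2b, the subunit that prevails in the young cortex, was measured at 91.9, 54.8 and 63.8 CPM in the adult control libraries, 35.4, 52.9 and 25.9 in the stroke libraries, 34.7, 14.6 and 56.7 in siRNA-labelled stroke and 296, 465 and 94.9 in P4. Every P4 library was above every other library, and the stroke libraries were all below the adult control libraries. Grin2b was higher in P4 than in adult control by 2.02 ± 0.56 on the log2 scale (adjusted p = 0.0223), and stroke against adult control gave -0.88 ± 0.55 (adjusted p = 0.449), which did not pass. The P4 call against adult control was lost without adult control replicate 2, P4 replicate 4 or P4 replicate 5, with adjusted p-values of up to 0.125, and relative to the neuronal markers (1.27, adjusted p = 0.206). Grin2c, an NMDA subunit of the mature brain that is typical of cerebellar granule cells and astrocytes, had 166, 298 and 23 counts across the adult controls, 6, 0 and 4 across the stroke libraries, 21, 3 and 14 in siRNA-labelled stroke and 11, 19 and 3 in P4. In CPM all adult control libraries were higher than all others. Grin2c was lower in P4 than in adult control by -4.39 ± 1.41 on the log2 scale (adjusted p = 0.0442), and this call held in 1 of 6 fits that left out a library, with adjusted p-values of 0.0271 to 0.173. The 12 astrocyte markers moved in the same way, from 0.511% ± 0.115 of counts in adult control to 0.0809% ± 0.0150 in stroke, 0.112% ± 0.0335 in siRNA-labelled stroke and 0.0525% ± 0.0131 in P4, and their part in the Grin2c values was not tested. Grin2d, which is found early and in interneurons, had 29, 87 and 0 counts in the adult controls, 6, 7 and 6 after stroke, 6, 32 and 47 in siRNA-labelled stroke and 432, 529 and 84 in P4, and in CPM the P4 libraries were above all others. It was higher in P4 than in stroke by 4.97 ± 1.33 (adjusted p = 0.0154). This call held in 2 of 6 fits that left out a library, with adjusted p-values of up to 0.0674, and was lost with the replicate number as a block and relative to the neuronal markers (3.31, adjusted p = 0.0996). Grin1, the obligatory NMDA subunit, did not pass in any comparison and averaged 16.9 ± 10.7 CPM in adult control, 15.6 ± 3.80 in stroke and 35.5 ± 18.5 in P4.

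Among the metabotropic glutamate receptor genes, Grm5, a group I receptor that couples to phospholipase C, was measured at 109.5, 56.2 and 242 CPM in the adult control libraries, 31.6, 55.5 and 51.5 in the stroke libraries, 93.1, 62.3 and 51.1 in siRNA-labelled stroke and 258, 315 and 379.6 in P4. No stroke library reached the lowest adult control library, and the P4 libraries were above all others. Its log2 fold change was -1.56 ± 0.46 in stroke against adult control (adjusted p = 0.144), which did not pass, and 2.78 ± 0.48 in P4 against stroke (adjusted p = 0.000708), which did. Relative to the neuronal markers the P4 difference from stroke was 0.98 and did not pass (adjusted p = 0.147). Grm3, a group II receptor that lowers cyclic AMP and is abundant in glia as well as neurons, was measured at 249, 307 and 131 CPM across the adult controls, 182, 129 and 107 across the stroke libraries, 189.7, 157 and 251 in siRNA-labelled stroke and 218, 343 and 176 in P4. Its groups overlapped and it passed no test. Grm7, the most abundant group III receptor gene, was measured at 37.3, 45.2 and 72.1 CPM in the adult controls, 23.0, 25.0 and 16.9 after stroke, 51.6, 19.9 and 33.7 in siRNA-labelled stroke and 46.8, 64.1 and 54.9 in P4. The stroke libraries were below those of adult control and P4. Grm7 was higher in P4 than in stroke by 1.35 ± 0.42 (adjusted p = 0.0365), a call lost in each of the 6 fits without 1 library and turned to -0.36 relative to the neuronal markers. All 8 metabotropic genes had log2 fold changes above 0 in P4 against adult control, with a median of 1.23 where the median of all genes was -0.16, and none passed; relative to the neuronal markers 5 of 8 were above 0, with a median of 0.40.

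In the GABA-A family, Gabrb2, a beta subunit of many adult receptors, had its lowest levels in the stroke libraries. It was measured at 299.7, 98.7 and 414 CPM across the adult controls, 62.5, 71.5 and 58.7 across the stroke libraries, 161, 88.2 and 104 in siRNA-labelled stroke and 499.5, 463 and 934 in P4. All stroke libraries were below all adult control and all siRNA-labelled libraries, and P4 was the highest group. In stroke against adult control the log2 fold change of Gabrb2 was -2.08 ± 0.46 (adjusted p = 0.0574), which did not pass. Without adult control replicate 2, the adult control library with the lowest share of neuronal markers (0.245%), 6 receptor genes passed as lower, among them Gabrb2, Gabra3, Gabra6 and Grm5, where 1.65% of all genes were called lower. Gabra6 did not pass the filter of the main fit. It passed that of this fit through the adult controls, with 14 and 165 counts there and 0, 0 and 0 after stroke, so its call adds no support. Relative to the neuronal markers the log2 fold change of Gabrb2 was -0.96, with an adjusted p of 0.406. Between siRNA-labelled stroke and stroke it was 0.88 ± 0.45 (adjusted p = 0.694), without overlap between the 3 libraries of each group; it did not pass, and this comparison shares the stroke libraries with the previous one.

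**Figure D4:**
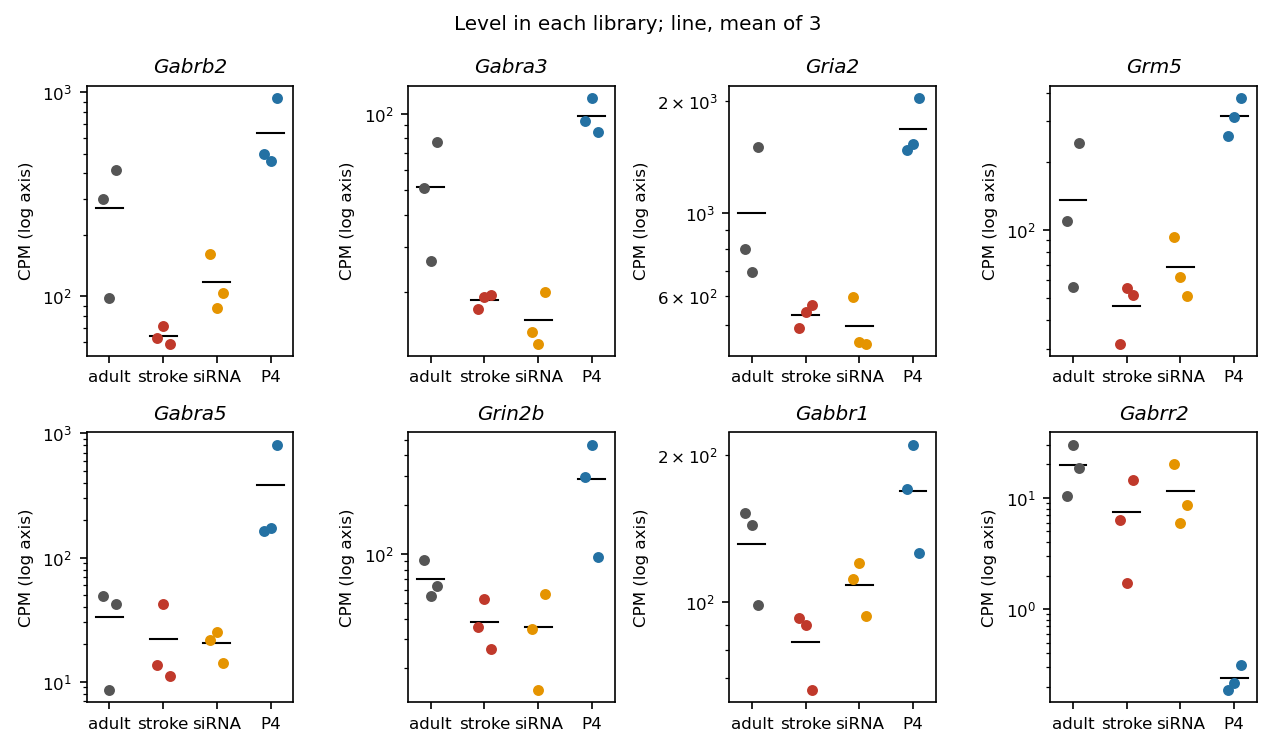
Level of 8 receptor genes in CPM (log axis) in each library, by group; points are libraries and lines are means of 3. Gabrb2 is lowest in stroke, Gabra5, Grm5 and Grin2b are highest in P4, and Gabrr2 lies at 0.187 to 0.317 CPM in P4 against 1.73 to 30.1 in the other groups.

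Of the alpha subunits known from early development, Gabra5 and Gabra3 were higher in P4 than in stroke and Gabra2 passed no test. Gabra5, known for receptors outside the synapse, was measured at 48.9, 8.55 and 42.1 CPM in the adult control libraries, 13.6, 41.9 and 11.2 in the stroke libraries, 21.6, 25.3 and 14.3 in siRNA-labelled stroke and 163, 173 and 809 in P4. The P4 libraries were far above all others, P4 replicate 6 most of all. Gabra5 was higher in P4 than in adult control by 3.53 ± 0.77 on the log2 scale (adjusted p = 0.00518), than in stroke by 4.10 ± 0.79 (adjusted p = 0.0017) and than in siRNA-labelled stroke by 4.23 ± 0.80 (adjusted p = 0.00137). It passed under every alternative run for these 3 comparisons, including the scale of the neuronal markers, where P4 exceeded adult control by 2.73 (adjusted p = 0.00823). Without P4 replicate 6 the P4 difference from adult control was 2.36. Gabra3 was measured at 51.0, 26.5 and 77.4 CPM across the adult controls, 17.1, 19.0 and 19.4 across the stroke libraries, 13.9, 12.5 and 19.9 in siRNA-labelled stroke and 93.6, 115 and 84.5 in P4. Both stroke groups were below all adult control libraries and P4 was above them. Its log2 fold change was -1.48 ± 0.41 in stroke (adjusted p = 0.124) and -1.74 ± 0.41 in siRNA-labelled stroke (adjusted p = 0.191) against adult control, neither of which passed, and 2.40 ± 0.42 in P4 against stroke (adjusted p = 0.000827), which did. Relative to the neuronal markers the P4 difference from stroke was 0.70 and did not pass (adjusted p = 0.365). Gabra2 was measured at 14.0, 9.56 and 156 CPM in the adult controls, 8.08, 14.7 and 1.41 after stroke, 15.0, 5.38 and 7.71 in siRNA-labelled stroke and 15.5, 16.4 and 62.2 in P4. Adult control replicate 3 was far above all other libraries, and P4 overlapped adult control. The log2 fold change of siRNA-labelled stroke against adult control was -2.68 ± 1.04 (adjusted p = 0.489), or -0.34 without adult control replicate 3, and that of P4 against adult control was -0.93 ± 0.98 (adjusted p = 0.578); neither passed. Gabra6, an alpha subunit of cerebellar granule cells, had 14, 3 and 165 counts in the adult controls, 0, 0 and 0 after stroke, 0, 2 and 0 in siRNA-labelled stroke and 2, 1 and 2 in P4; nearly all its counts came from adult control replicate 3.

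Gabrr2, a rho subunit best known from the retina, was low in P4. It had 265, 1211 and 163 counts across the adult controls, 182, 54 and 267 across the stroke libraries, 325, 102 and 299 in siRNA-labelled stroke and 10, 11 and 5 in P4, although the P4 libraries 4 and 5 were the most deeply sequenced. It was lower in P4 than in adult control by -6.38 ± 0.95 on the log2 scale (adjusted p = 0.000269), than in stroke by -4.98 ± 0.90 (adjusted p = 0.00102) and than in siRNA-labelled stroke by -5.60 ± 0.92 (adjusted p = 0.00047), and it passed under every alternative run for these comparisons. Its P4 level moved with the oligodendrocyte, oligodendrocyte precursor, microglia and astrocyte markers. In this order they took 0.0206%, 0.0224%, 0.00334% and 0.0525% of counts in P4, and 5.87%, 0.238%, 0.0855% and 0.511% in adult control. They took 5.98%, 0.429%, 0.0662% and 0.0809% in stroke, and 9.04%, 0.222%, 0.196% and 0.112% in siRNA-labelled stroke. Gabrr2 averaged 19.7 CPM in adult control, 7.50 in stroke, 11.6 in siRNA-labelled stroke and 0.241 in P4. The part of these markers in the Gabrr2 values was not tested. Gabrd, the delta subunit of receptors outside the synapse, was low throughout, at 2.34, 1.54 and 0.228 CPM in the adult controls, 2.07, 2.95 and 0.543 after stroke, 1.24, 0.347 and 4.39 in siRNA-labelled stroke and 1.09, 3.25 and 0.634 in P4, and its groups overlapped.

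The GABA-B receptor needs both its subunits, and both were called higher in P4 than in stroke. Gabbr1 was measured at 152, 144 and 98.5 CPM in the adult control libraries, 92.9, 89.7 and 66.1 in the stroke libraries, 111, 120.0 and 93.8 in siRNA-labelled stroke and 170.4, 209.7 and 126 in P4, and the stroke libraries were all below the adult control libraries. The log2 fold change was -0.67 ± 0.31 in stroke against adult control (adjusted p = 0.315), which did not pass, and 1.03 ± 0.31 in P4 against stroke (adjusted p = 0.0323), which did but turned to -0.62 relative to the neuronal markers. Gabbr2 was measured at 64.0, 57.4 and 27.6 CPM across the adult controls, 34.6, 42.1 and 31.2 across the stroke libraries, 52.1, 14.7 and 50.9 in siRNA-labelled stroke and 118, 158 and 65.5 in P4. The P4 libraries were the highest, and stroke overlapped adult control. Gabbr2 was higher in P4 than in stroke by 1.66 ± 0.50 (adjusted p = 0.0301) and than in siRNA-labelled stroke by 1.54 ± 0.50 (adjusted p = 0.0424). Each of these calls held in 1 of 6 fits that left out a library, and relative to the neuronal markers the differences were 0.03 and 0.24, neither of which passed.

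Taken as families, 36 of the 46 tested genes had a log2 fold change below 0 in stroke against adult control, with a median of -0.72 where the median over all genes tested was -0.08; relative to the neuronal markers the median turned to 0.04, with 21 of 46 below 0. The 20 tested GABA genes had a median of -1.24, with 18 below 0, and the 26 glutamate genes -0.45, with 18 below 0; relative to the neuronal markers the medians were -0.24 and 0.26. For 14 of the 46 genes the 3 stroke libraries did not overlap the 3 adult control libraries, where this held for 20% of all genes. In siRNA-labelled stroke against adult control 37 of 46 were below 0, with a median of -0.68 against -0.02 for all genes, and -0.17 relative to the neuronal markers. Libraries of these 2 groups did not overlap for 7 receptor genes, against 10.8% of all genes. In siRNA-labelled stroke against stroke the median was 0.12, against 0.04 for all genes and -0.13 relative to the neuronal markers, and 8 genes did not overlap, against 15.9% of all genes. In P4 against adult control 30 of 46 were above 0, with a median of 0.82 against -0.16 for all genes, which turned to -0.12 against -1.18 relative to the neuronal markers. P4 did not overlap adult control for 19 receptor genes, against 32.1% of all genes, nor stroke for 23, against 44.4%, nor siRNA-labelled stroke for 21, against 39.4%.

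Against the stroke libraries, the P4 calls fell mostly on GABA genes: 9 of 20 tested GABA genes were higher in P4 than in stroke and 6 of 26 glutamate genes. Among the 9 GABA genes were Gabra3, Gabra4, Gabra5, Gabrb1, Gabrb2, Gabbr1 and Gabbr2, and the 6 glutamate genes were Gria2, Grin2b, Grin2d, Grm5, Grm7 and Grm8. The difference between these shares was not tested. Gabrb2 and Gabra5 were higher in P4 than in stroke also relative to the neuronal markers, by 1.48 and 2.09 on the log2 scale, and none of the other 11 genes named here was called higher on that scale. On that scale Gria3, Gria4, Grik2 and Gabrr2 were lower in P4 than in stroke. P4 was called against all 3 other groups in 4 receptor genes, among them Gabra5 and Grin2b (higher) and Gabrr2 (lower). The share of all genes called against all 3 was not computed. Taken singly, the comparisons with adult control, stroke and siRNA-labelled stroke called 16.8%, 18.8% and 19.6% of all genes.

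Many GABA-A genes lie in clusters of the mouse genome, in which neighbours within 1000000 bases of each other were grouped (GRCm38). The cluster on chromosome 5 from 70751047 to 72149037 holds Gabrg1, Gabra2, Gabra4 and Gabrb1. Their log2 fold changes in stroke against adult control were -0.93, -2.89, -1.12 and -1.36, and none passed. Relative to the neuronal markers they were 0.027, -1.615, -0.002 and -0.675. The adult control mean of Gabra2 was raised by replicate 3, at 156 CPM against 14.0 and 9.56 in the others.

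Of all receptor genes, 8 were higher in P4 than in both stroke groups in every fit that left out a library, among them Gria2, Grin2b, Grm5, Gabra3, Gabra5 and Gabrb2. Each such fit called 12.5% to 15.2% of all genes in either direction against stroke and 12.8% to 16.7% against siRNA-labelled stroke. The share of all genes called higher in every fit was not computed. RefSeq promoter sequences (GRCm38.p6) matched 4 of them, Gria2, Gabra3, Gabra5 and Gabrb2, and 32 of the 47 receptor genes with 39 listed starts. These 4 were chosen by their P4 calls, so that their higher levels in P4 are not a separate result. Relative to the neuronal markers Gabra5 and Gabrb2 were called higher in P4 than in stroke, and Gria2 and Gabra3 were not. Against siRNA-labelled stroke Gabra5 alone of the 4 was called on that scale, and the Gabrb2 call was lost. The 250 bases before the outermost listed start of each of the 4 are shown. They lie at chr3:80802836-80803085 (minus strand) for Gria2, chrX:72656920-72657169 (minus strand) for Gabra3, chr7:57510060-57510309 (minus strand) for Gabra5 and chr11:42420190-42420439 (plus strand) for Gabrb2, and read 5′ to 3′ with the GC box (GGGCGG) and TATA box (TATAAA) in capitals on either strand.
Gria2: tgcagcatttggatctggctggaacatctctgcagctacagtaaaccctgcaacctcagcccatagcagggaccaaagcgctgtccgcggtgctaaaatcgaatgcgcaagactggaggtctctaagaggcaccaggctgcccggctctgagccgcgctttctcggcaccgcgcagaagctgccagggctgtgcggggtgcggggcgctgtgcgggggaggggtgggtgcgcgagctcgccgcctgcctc
Gabra3: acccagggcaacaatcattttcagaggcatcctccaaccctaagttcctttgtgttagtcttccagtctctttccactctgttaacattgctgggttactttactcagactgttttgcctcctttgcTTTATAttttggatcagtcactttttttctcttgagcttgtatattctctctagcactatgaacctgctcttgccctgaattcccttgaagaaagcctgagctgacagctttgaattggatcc
Gabra5: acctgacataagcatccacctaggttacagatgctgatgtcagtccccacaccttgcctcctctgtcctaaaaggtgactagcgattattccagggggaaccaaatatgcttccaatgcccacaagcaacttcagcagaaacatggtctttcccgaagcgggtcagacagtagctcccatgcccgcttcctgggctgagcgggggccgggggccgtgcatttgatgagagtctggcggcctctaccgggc
Gabrb2: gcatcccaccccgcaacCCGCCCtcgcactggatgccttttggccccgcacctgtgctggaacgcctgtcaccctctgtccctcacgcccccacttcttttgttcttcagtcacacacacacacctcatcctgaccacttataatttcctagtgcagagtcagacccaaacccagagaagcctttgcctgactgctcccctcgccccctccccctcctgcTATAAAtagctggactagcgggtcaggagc
Their base composition differed widely, from 42.4% G and C for Gabra3 to 64.8% for Gria2. The window of Gabra3 holds 1 TATA box and no GC box, that of Gabrb2 holds 1 of each, and those of Gria2 and Gabra5 hold neither. Over all receptor genes a GC box was found in 18 of 39 windows, 46.2%, against 32.7% of the 32851 windows of all genes, and a TATA box in 4 of 39 against 12.4% of all windows. Windows of the same gene can overlap, and the 4 with a TATA box came from 3 genes. The median share of G and C was 58.8% in the receptor windows and 52.4% in all windows. Its part in the GC box share was not tested. The CRE (TGACGTCA) and Egr (GCGTGGGCG) motifs, on both strands, were in none of the 39 windows and in 1.55% and 0.536% of all windows. None of these 4 motifs contains another, and a match is of letters in this window only.

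Ratios between subunits of the same library do not depend on library size, and 8 pairs known to shift with age or receptor type were compared. The log2 ratio of Grin2a to Grin2b counts was -1.97 ± 0.398 in adult control (SD, n = 3), -1.98 ± 1.33 in stroke, -1.73 ± 0.626 in siRNA-labelled stroke and -3.40 ± 0.706 in P4. Grin2b exceeded Grin2a in all 12 libraries, and P4 was below adult control and siRNA-labelled stroke without overlap. The log2 ratio of Grm3 to Grm5 was 0.918 ± 1.68 in adult control, 1.60 ± 0.806 in stroke, 1.55 ± 0.663 in siRNA-labelled stroke and -0.409 ± 0.631 in P4. P4 lay below both stroke groups without overlap and overlapped adult control. The ratios of Gria1 to Gria2 and of Grin3a to Grin1 overlapped between all groups. Exact two-sided permutation tests with 3 libraries against 3 cannot give a p under 0.1, which the non-overlapping ratios reached; over the 48 tests of 8 ratios in 6 comparisons no adjusted p was under 0.343.

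**Figure D5:**
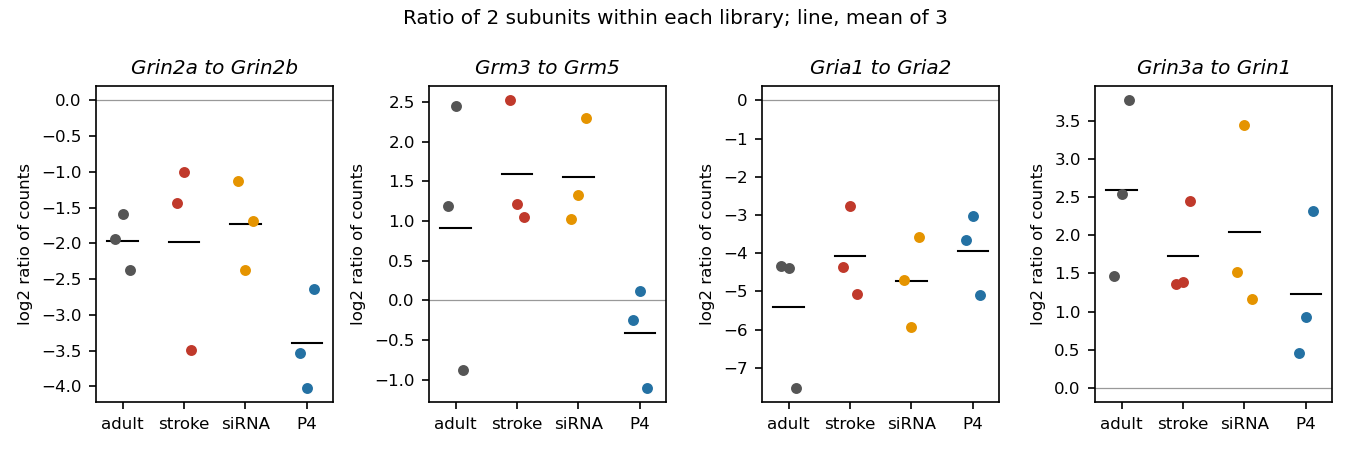
Log2 ratio of the counts of 2 subunit genes (y axes) in each library, by group; points are libraries, lines are means of 3 and the grey line marks equal counts. Grin2a to Grin2b is below 0 in all 12 libraries, and Grm3 to Grm5 lies at 1.03 to 2.52 in the 6 stroke and siRNA-labelled libraries and at -1.11 to 0.123 in P4.

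Genes that work with these receptors were counted from 5 lists. In P4 against adult control, 6.32% of all genes were called higher and 10.4% lower. Of the 15 general neuronal markers, 6 were called higher there and 0 lower, with a median log2 fold change of 1.43. Values of the lists relative to these markers are not given, and the part of the neuronal share in them was not tested. Of 17 auxiliary subunits of glutamate receptors, 0 passed in stroke against adult control and 6 were higher in P4 than in adult control, led by Shisa6, which modulates AMPA receptors (3.71 ± 0.51, adjusted p = 0.000128), and Shisa7, at 147 ± 37.0 CPM in P4 and 59.7 ± 16.3 in adult control (adjusted p = 0.018). In stroke, Cacng5 and Cacng2, members of the TARP family of AMPA receptor partners, had the smallest p-values, with 2.20 ± 0.49 (adjusted p = 0.0558) and -1.50 ± 0.46 (adjusted p = 0.155). Of 20 scaffold genes of glutamate synapses, 0 passed in stroke against adult control, where Shank2 and Shank1 had -1.22 ± 0.40 (adjusted p = 0.172) and -1.23 ± 0.42 (adjusted p = 0.19). In P4, 5 were higher than in adult control and 1 was lower, Dlg1 (-2.62 ± 0.29, adjusted p = 1.57e-05); Grip1, which binds AMPA receptors, was higher by 4.09 ± 0.71 (adjusted p = 0.000941). Of 16 scaffold and auxiliary genes of GABA receptors, 0 passed in stroke against adult control, where Gabarap and Clptm1 had 1.02 ± 0.33 (adjusted p = 0.167) and 1.24 ± 0.51 (adjusted p = 0.259), and 2 were higher and 1 lower in P4, with Lhfpl4, needed to place GABA-A receptors at synapses, higher by 1.63 ± 0.44 (adjusted p = 0.0187) and Gabarap lower by -1.17 ± 0.33 (adjusted p = 0.0228).

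Transmitter uptake and metabolism gave the only calls of these lists between stroke and adult control. Of 16 genes, 2 fell, where 0.218% of all genes were called lower: Slc1a2 and Slc1a3, which code for the glutamate transporters of astrocytes. Slc1a2 went from 4129 ± 876 CPM in adult control to 563 ± 153 in stroke (-2.87 ± 0.37 on the log2 scale, adjusted p = 0.00219), and Slc1a3 from 244 ± 83.4 to 57.0 ± 3.39 (-2.10 ± 0.38, adjusted p = 0.0208). Both are also on the list of 12 astrocyte markers, 7 of which were lower in stroke than in adult control. In P4 against adult control 4 of the 16 fell, where 10.4% of all genes were called lower. Among the 4 were Glul, the glutamine synthetase of astrocytes (-4.75 ± 0.36, adjusted p = 5.37e-07), and Slc1a2 (-3.67 ± 0.38, adjusted p = 1.01e-05). Of the 5 glycine receptor genes, 0 passed in stroke against adult control, where Glra1 and Glra3 had adjusted p-values of 0.195 and 0.282. In P4 against adult control Glra2, the alpha subunit known from immature neurons, rose by 5.00 ± 0.71 (adjusted p = 0.000162) and Glrb, the beta subunit, was lower by -1.45 ± 0.42 (adjusted p = 0.0261).

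The authors' deposited table gives their own fold changes and false discovery rates for the same comparisons. In the authors' deposited table, 7 receptor genes were lower in stroke than in adult control at a false discovery rate under 0.05, among them Grin2c, Grm5, Gabra6, Gabrb2 and Gabrr1, where 1.86% of all genes in that table were lower and the test used here called no receptor gene. Gabra6, which did not pass the filter used here, had 14, 3 and 165 counts in adult control and 0, 0 and 0 after stroke. Gabrr1 had 98, 8 and 100 counts in adult control and 0, 5 and 0 after stroke. The authors' deposited table gives Gabrb2 a log2 fold change of -2.05 with a false discovery rate of 0.00238. In the authors' deposited table, no receptor gene passed between siRNA-labelled stroke and stroke, Gabra3 was the 1 receptor gene lower in siRNA-labelled stroke than in adult control (0.353% of all genes), and 6 were higher and 4 lower in P4 than in adult control, against 5.75% and 9.7% of all genes.

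Several of these genes share exon sequence with a neighbour on the opposite strand (GENCODE vM21), and the sources used here do not say whether the authors' counting used strand. The shared length was 148 bases, 4.98% of the exons, for Gabra5 with Gm9962 and 643 bases, 9.66%, for Grin2d with Gm45441. It was larger for Grin3b, which shares 32.13% of its exons with Tmem259, and for Grin1, which shares 13.47% with Grin1os. Reads from either gene cannot be told apart there without strand.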

How the data were processed

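RNA was sequenced with 69 bp paired-end reads from 12 libraries, per the labels' protocols (Zymo RNA-Microprep, Ovation RNA-seq System v2). The submitters' processing notes name CASAVA 1.8.2, edgeR and mm10; those used here name no aligner, counter, annotation or strand setting. The raw counts per gene were used as the authors deposited them, as whole numbers. The authors' deposited log2 fold changes and false discovery rates (adjusted p-values) were copied and not recomputed. A further 30 columns of per-sample values, 12 of them normalized counts, were not used. The count columns of the first P4 library are headed P3 and were matched by replicate number.

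Counts were tested with edgeR 4.0.16 in R 4.3.3 (filterByExpr by group, TMM factors, quasi-likelihood fit of 4 group means over all 12 libraries, Benjamini-Hochberg adjustment over 17909 genes, called at an adjusted p under 0.05). Standard errors are the fold change divided by the root of F, and the SD is over the 3 libraries of a group. Fits were also run on counts simulated from their own estimates of spread. That simulation held no outlying library and no difference in cell types, so it cannot test for those limits. The ratios used raw counts plus 0.5. Within groups, libraries differed by more than counting noise (chi-square of 49.2 to 404 per degree of freedom), so none was treated as a second sequencing run of another. This does not show that they came from separate animals. Alternatives were DESeq2 1.42.0, its size factors in edgeR, no filter, library sizes set to neuronal marker counts, fits to 2 groups, a replicate block, and leaving out each library.

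Genes described by their values were those called in P4 against adult control, the 4 smallest p-values in each comparison among the adult groups, which had no call, the most abundant gene of each family, and others chosen after their values were seen (Grin2d, Gabra6 and Grin1 among them); of each other list, the 2 smallest p-values in 2 comparisons. The receptor genes, lists, ratios and motifs were chosen with earlier results of these data known. Values of 4 receptor genes, and the ratios and genome clusters that hold them, are not reported here; counts and medians over families include them.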

Additional observations from a re-analysis of the deposited data

How the results depend on the processing

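Precision is limited by 3 libraries a group and, for genes such as Grin2c, Gabrd and the rho subunits, by low counts. DESeq2's Wald test called more receptor genes than edgeR: 9 in stroke against adult control (7.11% of all genes), 1 in siRNA-labelled stroke against adult control (2.07%) and 10 in P4 against adult control (27.6%), and its likelihood ratio test called 27 among the 4 groups (33.5%). Without the filter on low counts, 2 passed in stroke against adult control (Gabrb2 among them), where 0.679% of all genes were called. A fit to the 2 groups alone gave 1 between siRNA-labelled stroke and stroke (Grik3, log2 fold change -1.95), where 0.578% of all genes were called. The causes were not tested.

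Scaling to neuronal marker counts moved the median of all genes by up to 1.72 and gave 8 calls in P4 against stroke (32.2% of all genes), 8 in P4 against siRNA-labelled stroke (26.6%) and 7 among the 4 groups (22.9%). Only 5 of the 17 and 3 of the 14 receptor genes called on the scale of all counts were among the 8 and 8. On that scale the P4 difference from stroke turned to -0.11 for Gria2, -0.62 for Gabbr1, -0.36 for Grm7 and -0.12 for Gabra4. DESeq2's size factors in edgeR moved that median by up to 0.13.

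Leaving out 1 library gave 9 to 18 calls among the 4 groups (12.5% to 22.9% of all genes). In stroke against adult control it gave 0 to 6 (0.165% to 2.92% of all genes), the 6, Gabra6 among them, without adult control replicate 2. It gave 0 to 0 in siRNA-labelled stroke against stroke (0% of all genes) and likewise against adult control (0.0259% to 0.13%). P4 against adult control had 3 to 11 (9.84% to 16.2%), with 11 without adult control replicate 3 and 3 without P4 replicate 4 or 5. P4 against stroke had 10 to 13 (12.5% to 15.2%) and P4 against siRNA-labelled stroke 9 to 13 (12.8% to 16.7%). The counts of P4 against stroke fell from 17 to 10 without stroke replicate 4, stroke replicate 6 or P4 replicate 5. The share of all genes called fell as well, from 18.8% to 13.2%, 12.5% and 13.3% in these fits.

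With the replicate number as a block, 10 receptor genes passed in P4 against stroke (13.8% of all genes) and 0 in siRNA-labelled stroke against adult control (0.0614%). Other groups share no numbers. Deviations from the group means correlated at 0.16, 0.014 and 0.153 for same-numbered libraries of stroke and P4, against -0.175 to 0.151 for differently numbered ones. For adult control and siRNA-labelled stroke the values were 0.064, -0.191 and -0.336, against -0.317 to 0.481. The highest value belonged to adult control replicate 2 and siRNA-labelled replicate 3. The numbers were not taken to pair the libraries.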
